A study of Mus musculus with 2 samples.

Results

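The endoplasmic reticulum (ER) stress genes were examined in the skin of newborn keratin 5 knockout (K5-/-) mice and of newborn wild type mice. The set holds 10 genes: Atf4, Ddit3, Trib3, Xbp1, Calr, Canx, Pdia3, Pdia4, Herpud1 and Asns. A probe set was taken when the platform annotation gave it 1 gene symbol and that symbol was one of the 10. All 10 genes had at least 1 such probe set, out of 8251 genes on the array, and together they had 12 probe sets. Canx and Asns had 2 probe sets each and the others 1.

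Total RNA of 6 animals per genotype was pooled before labelling, and 1 array was hybridised per pool, which gives 1 K5-/- array and 1 wild type array. The labels name neither a strain nor any allele or treatment besides the loss of keratin 5. They call the tissue epidermis in one field and skin in others, and no separation of epidermis from dermis is described. Keratin 5 forms the filament network of basal keratinocytes together with keratin 14, and its loss serves as a model of the blistering disease epidermolysis bullosa simplex (EBS). With 1 array of pooled RNA per genotype no test between genotypes was possible, and every value below compares these 2 arrays.

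Proteins that enter the ER are folded there with the help of chaperones and disulfide isomerases. When unfolded proteins build up, the sensors PERK, IRE1 and ATF6 start the unfolded protein response. PERK phosphorylates the translation factor eIF2alpha, which lowers general translation and raises translation of ATF4 mRNA. ATF4 in turn activates genes such as Ddit3, Trib3 and Asns, and kinases that sense amino acid shortage, haem shortage or viral RNA feed into the same step. IRE1 splices Xbp1 mRNA, and XBP1 and ATF6 raise genes for folding and degradation of ER proteins. ATF4 and XBP1 activity is thus set in large part by translation and splicing, which a signal for total mRNA does not show.

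The K5-/- pool had somewhat higher signals for the genes of the ATF4 branch that encode regulators, and lower signals for the disulfide isomerases Pdia3 and Pdia4 and for asparagine synthetase. Trib3, Ddit3 and Atf4 had log2 ratios of K5-/- over wild type of 0.60, 0.49 and 0.47. Herpud1 and Canx were at 0.23 and 0.24, and Xbp1 was at 0.00. Asns, Pdia3 and Pdia4 were at -0.35, -0.40 and -0.49, and Calr gave no ratio because both of its signals were near background.

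A floor was set at the 40th percentile of all signals, 246.7 signal units, since lower signals of this kind of array carry little information. A gene counted as measured when its brightest probe set exceeded the floor in 1 or both pools, and 5976 genes did. Of the 10 genes, 9 were measured, each above the floor on both arrays. Of these, 3 were lower in the K5-/- pool and 6 were higher, counting Xbp1, which hardly differed (0.0023). Among all measured genes 53.9% were higher. In either direction, 0 of the 9 differed at least 2-fold. Over all measured genes 2.24% did, of which 1.54% were higher and 0.703% lower, as shares of all. At 1.5-fold, 1 of the 9 was higher (Trib3) and 0 were lower, against 7.63% and 5.27% of all measured genes. Trib3 was under 1.5-fold with quantile normalization (0.48), a lowess correction (0.47) or a pseudocount in place of the floor (0.49), and was not measured with the floor at the 60th percentile. The median log2 ratio of the 9 genes was 0.23, against 0.04 over all measured genes.

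Only a part of the technical error could be judged, from the scatter between probe sets of 1 gene on the same 2 arrays. In 838 genes with 2 or more probe sets that exceeded the floor in both pools, the log2 ratios of a gene's probe sets had a standard deviation (SD) of 0.30 around their mean. Absolute log2 ratios of 6 of the 9 genes exceeded 1 SD, and that of 1, Trib3, exceeded 2 SD. Many other genes did too: 65.3% of measured genes had a smaller absolute ratio than Asns, the smallest of these 6. For Trib3 that share was 87.9%. Against the SD of 0.31 among the dimmer of those genes, a class that includes Trib3, it was at 1.94 SD. The central 95% of measured genes lay between -0.74 and 0.85, and all 9 genes were inside that range. The central 68% lay between -0.33 and 0.40. Atf4, Ddit3 and Trib3 were above it, and Asns, Pdia3 and Pdia4 were below it. Differences between animals, between pools and between hybridisations do not enter this SD.

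**Figure D1:**
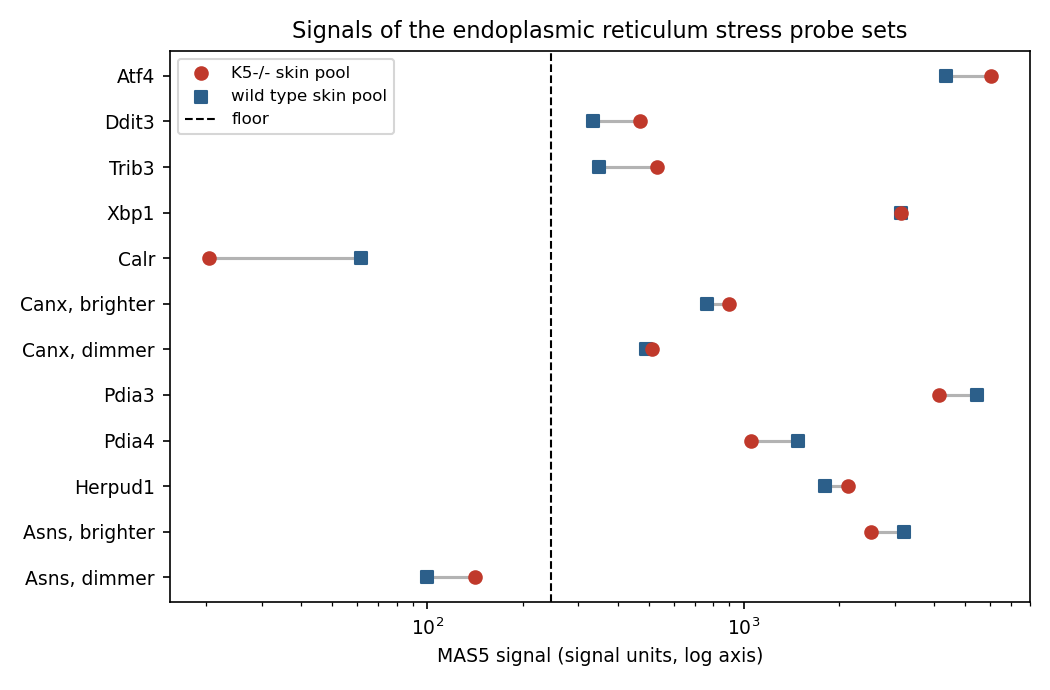
MAS5 signal (horizontal log axis, signal units) of each of the 12 probe sets in the K5-/- skin pool (circles) and the wild type skin pool (squares), with the floor of 246.7 as a dashed line. Atf4, Ddit3 and Trib3 lie to the right in the K5-/- pool, Pdia3, Pdia4 and the brighter Asns probe set to the left, and Calr and the dimmer Asns probe set lie below the floor in both pools.

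Atf4 encodes the transcription factor on which the eIF2alpha kinases converge. Its probe set read 6019 in K5-/- skin, against 4347 in wild type skin. The K5-/- signal was 1.39-fold higher, a log2 ratio of 0.47, or 1.58 times the SD between probe sets. Both signals were far above the floor, and 87.8% of measured genes had a lower log2 ratio.

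Ddit3 encodes CHOP, a transcription factor induced by ATF4 that promotes cell death under prolonged ER stress. Its signal was 469 in the K5-/- pool, against 333 in the wild type pool, a 1.41-fold higher signal and a log2 ratio of 0.49. These are dim signals, 1.90 times the floor in the K5-/- pool and 1.35 times the floor in the wild type pool.

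Trib3 encodes a pseudokinase that is induced by ATF4 and CHOP and restrains ATF4 activity. Its signal was 530.5 in K5-/- skin, against 350.0 in wild type skin. The 1.52-fold higher signal, a log2 ratio of 0.60 or 2.02 times the SD, was the highest ratio of the 9 genes, and 92.7% of measured genes had a lower one. Its signals were dim as well, 2.15 and 1.42 times the floor in K5-/- and wild type skin.

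Xbp1 encodes the transcription factor whose mRNA is spliced by IRE1. It read 3135 in the K5-/- pool and 3131 in the wild type pool, a log2 ratio of 0.00. The array gives 1 signal for the gene, so spliced and unspliced Xbp1 mRNA were not distinguished.

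Herpud1 encodes a membrane protein of ER-associated degradation (ERAD), the pathway that removes misfolded proteins from the ER, and is strongly induced by ER stress in many cells. It read 2129.7 in K5-/- skin, against 1811 in wild type skin. The log2 ratio of 0.23 was smaller than the SD between probe sets, at 0.79 times its size.

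Calnexin (Canx) and calreticulin (Calr) are lectin chaperones that hold newly made glycoproteins in the ER until they are folded. The brighter Canx probe set read 900.2 in the K5-/- pool, against 764 in the wild type pool, and the dimmer one read 513 and 491. The log2 ratios were 0.24 and 0.06, both within 1 SD. Calr read 20.4 in K5-/- skin and 61.9 in wild type skin, both below the floor, so no ratio is given. Calreticulin is abundant in most cells, and a single probe set that reads below the floor in both pools gives no measure of the gene.

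Pdia3 (ERp57) is the disulfide isomerase that works with calnexin and calreticulin, and Pdia4 (ERp72) is a related isomerase. Pdia3 had signals of 4135 in K5-/- skin and 5442 in wild type skin. It was 1.32-fold lower in K5-/- skin, with a log2 ratio of -0.40, or 1.33 times the SD. Pdia4 had signals of 1056 in K5-/- skin and 1482 in wild type skin. It was 1.40-fold lower in K5-/- skin, with a log2 ratio of -0.49, or 1.64 times the SD, and 8.07% of measured genes had a lower ratio. Each has 1 probe set, so neither direction has a second probe set to set beside it. Disulfide isomerases and related proteins outside the set, named after their values were seen, went both ways. Over all measured genes 46.1% were lower. Pdia6 was at -0.55, Txndc12 at -0.35, Erp29 at -0.30, Erp44 at -0.15, Dnajc10 at -0.07 and Tmx1 at -0.06. Pdia5, P4hb and Txndc5 were at 0.03, 0.08 and 0.11. The ratios of Erp44, Dnajc10, Tmx1, Pdia5, P4hb and Txndc5 were within 1 SD. They do not stand in for a second probe set of Pdia3 or Pdia4.

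Asns, asparagine synthetase, makes asparagine from aspartate and is a classical target of ATF4 under amino acid shortage. Its brighter probe set read 2517 in the K5-/- pool, against 3206 in the wild type pool. The K5-/- signal was 1.27-fold lower, a log2 ratio of -0.35, or 1.17 times the SD. The dimmer probe set read 142 and 99.9, below the floor in both pools, and gives no ratio. Asns thus lay 0.82 log2 units below Atf4 in its ratio, although both belong to the ATF4 branch. Trib3 and Pdia4, the ends of the range, were 1.09 log2 units apart.

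**Figure D2:**
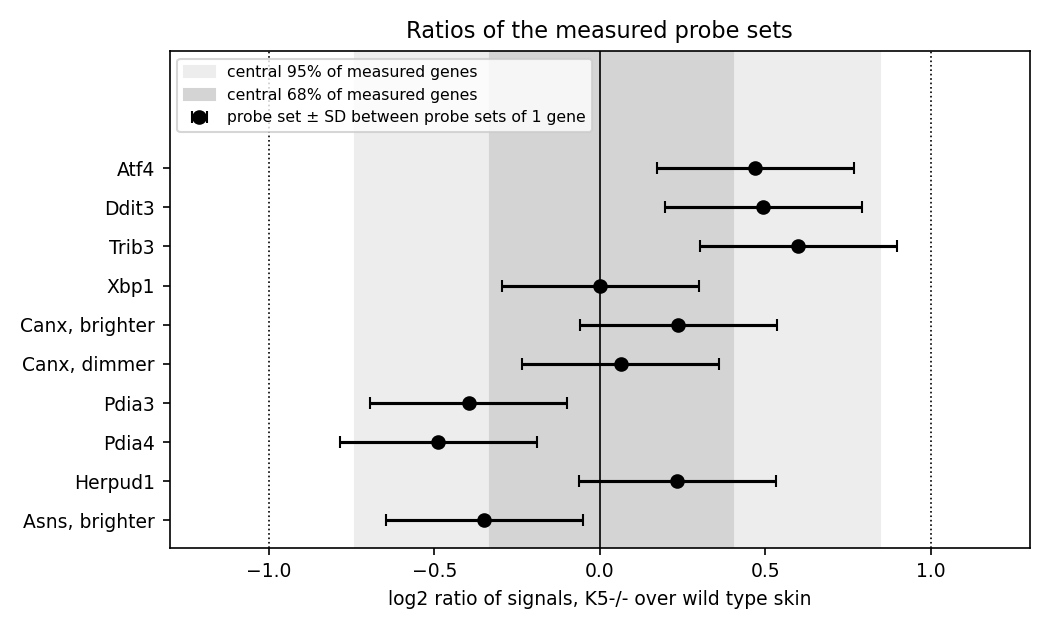
Log2 ratio of signals, K5-/- over wild type skin (horizontal axis), for the 10 measured probe sets; bars are ± 1 SD between probe sets of the same gene (0.30), shaded bands hold the central 68% and 95% of all measured genes, and dotted lines mark a 2-fold difference. Every probe set lies inside the 95% band, and the bars of Xbp1, Herpud1 and both Canx probe sets cross 0.

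**Figure D3:**
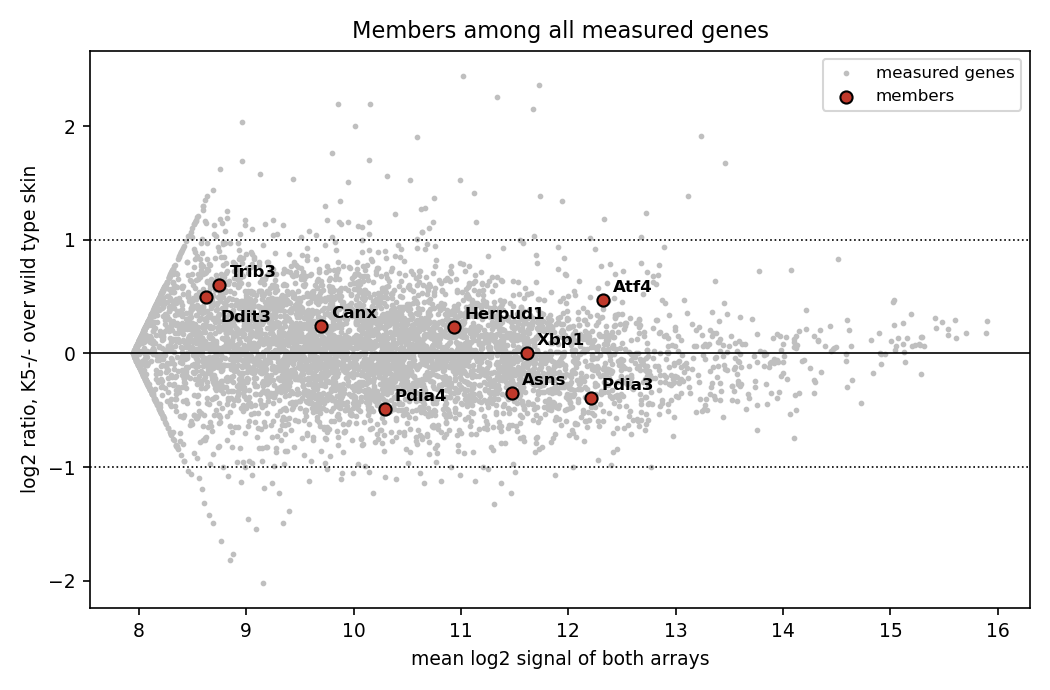
Log2 ratio of K5-/- over wild type skin (vertical axis) against mean log2 signal of both arrays (horizontal axis) for the 5976 measured genes (grey), with values below the floor raised to it and the 9 measured members in red. Ddit3 and Trib3 lie near the dim edge, close to the floor, while Atf4 and Pdia3 are among the bright genes.

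The median of the set depended on which genes were included. Ddit3, Trib3 and Canx had signals under 1000 in both pools. Without these 3, the median of the remaining 6 genes was -0.17, against 0.23 with them. With the floor at the 60th percentile Ddit3 and Trib3 were not measured, and the median of the other 7 genes was 0.0023. The sign of the group median thus depended on these 3 genes, while the ratios of Atf4 (0.47), Pdia3 (-0.40) and Asns (-0.35) came from signals at least 10.2 times the floor.

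Promoters of the genes were searched for response elements of the pathway, to show which genes carry the elements through which its branches are known to act. The sequences are those of RefSeq (mouse assembly GRCm38.p6) and cover 250 bases before and 50 after the annotated start of transcription. All 10 genes were found in that table. The elements were the ER stress response element (ERSE, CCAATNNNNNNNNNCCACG, bound by ATF6 with NF-Y), ERSE-II (ATTGGNCCACG), the C/EBP-ATF response element of ATF4 (CARE, TGATGNAA) and the unfolded protein response element (UPRE, TGACGTGG). Both strands were searched for exact matches, and N is any base. ERSE, ERSE-II and UPRE share the letters CCACG on one strand or the other, and no matches overlapped in the 10 promoters. Below, 150 bases upstream of the start are shown for the 4 genes with an upstream match, on the gene's strand, with the matches in capitals. The stretches run from -150 to -1 for Herpud1 and Asns, and from -200 to -51 for Canx and Calr.
Herpud1 (chr8:94386279-94386428, plus strand): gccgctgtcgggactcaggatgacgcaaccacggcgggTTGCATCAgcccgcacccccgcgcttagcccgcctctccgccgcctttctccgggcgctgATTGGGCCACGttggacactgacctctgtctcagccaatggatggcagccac
Canx (chr11:50325724-50325873, minus strand): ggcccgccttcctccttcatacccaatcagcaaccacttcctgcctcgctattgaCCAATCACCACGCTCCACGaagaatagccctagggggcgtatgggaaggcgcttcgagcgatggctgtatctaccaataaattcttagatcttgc
Calr (chr8:84846982-84847131, minus strand): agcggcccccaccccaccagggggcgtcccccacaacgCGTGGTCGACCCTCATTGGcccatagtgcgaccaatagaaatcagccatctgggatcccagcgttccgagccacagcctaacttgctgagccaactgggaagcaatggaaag
Asns (chr6:7693210-7693359, minus strand): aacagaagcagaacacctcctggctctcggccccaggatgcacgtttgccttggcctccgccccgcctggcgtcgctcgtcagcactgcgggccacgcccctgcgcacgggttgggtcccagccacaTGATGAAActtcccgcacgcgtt

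The Herpud1 promoter held 2 elements, a CARE at -112 to -105 on the other strand and an ERSE-II at -52 to -42, counted from the start of transcription. Canx had an ERSE at -145 to -127 and Calr one at -162 to -144 on the other strand. Asns had a CARE at -23 to -16, and Trib3 had a CARE (TTACATCA on the gene's strand) just after the start, at 15 to 22. An ERSE was found in 0.119% of all 32851 promoters, an ERSE-II in 0.0365%, a CARE in 3.97% and a UPRE in 0.676%. Xbp1, Atf4, Ddit3, Pdia3 and Pdia4 had no exact match to any of the 4 in this window, which says only that these letters are not there.

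Genes with the same element did not share a direction between the pools. Of the CARE genes in the set, Trib3 was at 0.60, Herpud1 at 0.23 and Asns at -0.35. Together with the other pathway genes described below, 12 measured genes carried a CARE, of which 8 were higher and 4 lower in K5-/- skin, with a median log2 ratio of 0.08. For the ERSE, 6 genes were measured. Canx was at 0.24 and Dnajc3, which encodes an inhibitor of eIF2alpha kinases, was at 0.20. Creld2 was at -0.01, Hspa5, the master chaperone BiP, at -0.06, Hsp90b1 (GRP94) at -0.11 and Pdia6 at -0.55. A match is a description of the letters and does not show that a factor binds there in skin.

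The rest of the pathway was followed in 9 lists of genes, taken by function. None of the lists shares a gene with the 10 members. Each list is described by its counts and median, beside 53.9% of measured genes higher, 46.1% lower and a median log2 ratio of 0.04 over all measured genes.

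Sensors and regulators of eIF2alpha were divided: 9 of 15 measured genes were higher in K5-/- skin and 6 lower, with a median of 0.07 and 0 genes at least 2-fold different. Ppp1r15a (GADD34), the stress-induced phosphatase subunit that reverses eIF2alpha phosphorylation, had the highest ratio, 0.64, with signals of 1092 in the K5-/- pool and 699 in the wild type pool. Eif2b2, a subunit of the exchange factor that recycles eIF2, was at 0.63, and the sensor gene Atf6 was at 0.46 on dim signals (350.3 against 255). The PERK gene Eif2ak3 was the lowest by brightest probe set of those that exceeded the floor in both pools, at -0.30, and was dim too (273 against 336). Eif2b5 was at -0.17 on its brighter probe set (1552 against 1741) and at -0.63 on its dimmer one (713 against 1102), and the constitutive phosphatase subunit gene Ppp1r15b was at -0.14.

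Partners and targets of ATF4 and CHOP included 10 higher and 6 lower genes of 16 measured, with a median of 0.09. Atf3, a stress-induced transcription factor that is a target of ATF4 and also an immediate early gene, was 4.45-fold higher (6879 against 1546.5) and was the 1 gene of the list past 2-fold. Its second probe set had a log2 ratio of 1.51 (1734 against 609.5). Both Atf3 probe sets have identifiers with an added letter, f or r, and so are not plain probe sets. Added letters also mark both Itpr2 probe sets, the brighter Glul one and the dimmer Rpn1 and Selenok ones. The same is true of the second Ero1a probe set and the brightest ones of Clgn, Shmt2, P4hb and Atp2a2. Cebpg, a dimer partner of ATF4, was at 0.85 (583 against 324), and Cebpb, another C/EBP factor, was at 0.68 (8967 against 5598). The 6 measured amino acid transporter genes of the list were divided. Slc7a5, the leucine transporter LAT1, was at -0.56 (3113 against 4588), Slc38a2 at -0.45 (2773 against 3777) and Slc1a4 at -0.11. Slc1a5 was at 0.37, Slc3a2, which encodes the partner chain of LAT1, at 0.18 and the glycine transporter gene Slc6a9 at 0.15.

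Enzymes of amino acid synthesis and one-carbon metabolism, many of them known ATF4 targets like Asns, had a median of -0.41, with 5 of 8 measured genes lower and 3 higher. Shmt1, a cytosolic serine hydroxymethyltransferase, was 1.96-fold lower (609.6 against 1192). Psph, the last enzyme of serine synthesis, was at -0.49, and Mthfd2, a mitochondrial folate enzyme, was at -0.42. Glul, glutamine synthetase, was at 0.39, but its second probe set was at -0.62, and Pycrl and Shmt2 were at 0.14 and 0.13. Aminoacyl-tRNA synthetases, which charge tRNAs with amino acids, had 12 lower and 7 higher genes of 19 measured and a median of -0.08. Vars was at -0.53, Aars at -0.40 and Mars1 at -0.37, while Farsa, Tars and Lars were at 0.55, 0.27 and 0.26.

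ER chaperones and folding enzymes other than the members were lower more often than higher in K5-/- skin, 19 against 8 of 27 measured, with a median of -0.11. None of the 27 differed at least 2-fold. Dnajb9, an ER co-chaperone that restrains IRE1, had the lowest ratio, -0.75 (663 against 1116), but a second probe set was at 0.16 (399.6 against 359). Rcn2, a calcium-binding protein of the ER, was at -0.73 (1042 against 1732) and the co-chaperone gene Dnajb11 at -0.64 (464 against 722). At the other end were Clgn, a calnexin relative, at 0.84 (670.3 against 374), the oxidase gene Ero1a at 0.60 and Sdf2 at 0.39. The second Ero1a probe set went the other way, at -0.15 (2026 against 2245).

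Genes of N-glycosylation and glycoprotein quality control had 14 lower and 5 higher members of 19 measured, with a median of -0.20. Ddost, a subunit of the oligosaccharyltransferase that attaches glycans in the ER, was 2.12-fold lower (864 against 1833), the 1 gene of this list past 2-fold. Rpn1, another subunit of that enzyme, was at -0.46 on its brighter and -0.43 on its dimmer probe set, and Pmm2 was at -0.51. Man1a, Dpagt1 and Stt3a were at 0.44, 0.28 and 0.09. The translocon and the signal recognition particle, through which proteins enter the ER, had 13 lower and 5 higher genes of 18 measured and a median of -0.15. Sec61b, a channel subunit, was at -0.74 (2579 against 4310.3), Ssr2, a channel-associated protein, at -0.69 and Srp19 at -0.48. Sec63, Sec11c and Srp68 were at 0.40, 0.26 and 0.22.

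ERAD genes, the pathway of Herpud1, were about evenly divided: 9 of 16 measured were higher and 7 lower, with a median of 0.03 (-0.00 with quantile normalization). Sel1l, a core component of the ubiquitin ligase complex of ERAD, was at 0.46 and 0.35 on its 2 probe sets, Edem3 at 0.38 and Ube2g1 at 0.30. The lectin gene Os9 was at -0.35 and Selenos at -0.16. Selenok was at -0.21 on its brighter probe set and at -0.80 on its dimmer one (354 against 617). Genes of ER calcium handling and of cell death at the ER had 5 higher and 4 lower members of 9 measured and a median of 0.12. Itpr2, a calcium release channel, was 1.81-fold higher (3295 against 1816), with its second probe set at 1.17, and the adaptor gene Traf2, which links IRE1 to kinase signalling, was at 0.53. Stim1 was at 0.21, and Bak1, Atp2a2 and Bcap29 were at -0.00, -0.10 and -0.25.

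**Figure D4:**
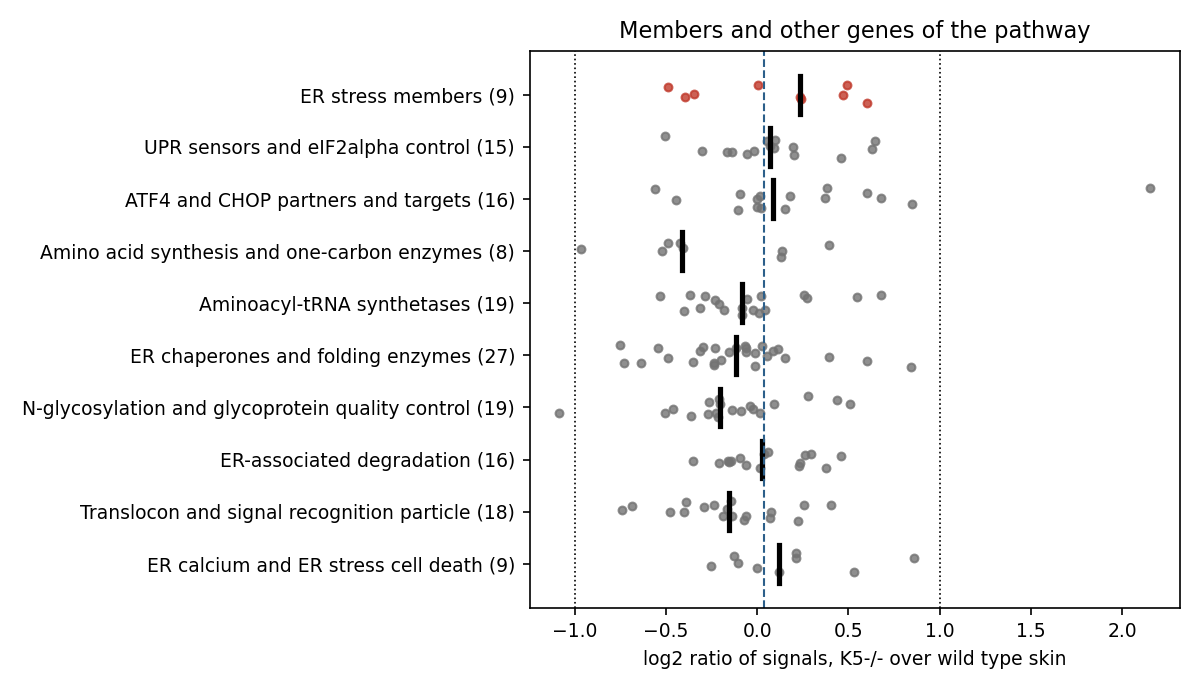
Log2 ratio of signals, K5-/- over wild type skin (horizontal axis), for the measured genes of the ER stress set (red) and of the 9 pathway lists (grey; number of genes in brackets); black bars are medians, the dashed line is the median of all measured genes (0.04), dotted lines mark a 2-fold difference and the vertical scatter within a row has no meaning. Atf3 at 2.15 and Ddost at -1.08 are the 2 genes beyond the dotted lines.

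Markers of several cell types differed between the pools beside these genes, and in pooled tissue RNA fewer cells of a type and less RNA per cell cannot be told apart. Of 4 measured basal keratinocyte markers, all were lower in K5-/- skin (median -0.46). The summed signal of all 7 on the array, those below the floor included, was 7350.2 against 9945. Krt5, Krt14 and Krt15 were below the floor in both pools, so their probe sets give no measure of these genes. Krt5 itself, the targeted gene, read 81.2 in the K5-/- pool and 46.6 in the wild type pool, so it does not check the labels. Suprabasal keratinocyte markers had a median of 0.29 (8 measured, 6 higher), and Krt1, Krt10, Lor and Flg were bright in both pools. All 9 measured macrophage and monocyte markers were higher (median 0.58). The summed signal of all 10 on the array, 1 of them below the floor, was 15106 against 10625. Fibroblast and dermal matrix markers had a median of 0.29 (6 of 8 higher) and skeletal muscle markers one of 0.24 (10 of 10 higher, summed signal 80743 against 68527), so genes of tissue outside the epidermis were read in both pools. Of 8 markers of plasma cells and B cells, in which XBP1 is heavily used, Jchain, Cd79b and Tnfrsf17 were below the floor in both pools, and the 5 measured markers had a median of -0.12 (2 higher, 3 lower). Among these 5, Irf4 was 2.92-fold lower (319 against 933), Prdm1 read 1010.3 in the K5-/- pool and 1097 in the wild type pool, and Sdc1 read 865 and 711. Mast cell markers had a median of -0.00 (3 of 7 higher), endothelial markers one of 0.22 (6 of 8), hair follicle and sebaceous markers 0.06 (6 of 8) and adipocyte markers 0.11 (4 of 5). The part of these differences in the ratios of the ER stress genes was not tested. RNA integrity, read as the signal of the 3 prime over the 5 prime control probe set, was 1.04 in the K5-/- pool and 1.06 in the wild type pool for Actb, and 0.841 and 0.831 for Gapdh.

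The 9 measured genes kept their directions under each normalization, floor and probe set choice that was run. Xbp1, between 0.00 and 0.06, showed next to no difference in any of them. For a gene with 1 plain probe set above each floor, the other floors and probe set choices leave the ratio unchanged by construction. Atf4 stayed between 0.46 and 0.56, Ddit3 between 0.37 and 0.49 and Trib3 between 0.47 and 0.60, in the settings in which each was measured. Pdia3 stayed between -0.40 and -0.31, Pdia4 between -0.53 and -0.45 and Asns between -0.35 and -0.30. The dimmer Canx probe set did change sign, to -0.04 with quantile normalization and -0.05 with a lowess correction.

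**Figure D5:**
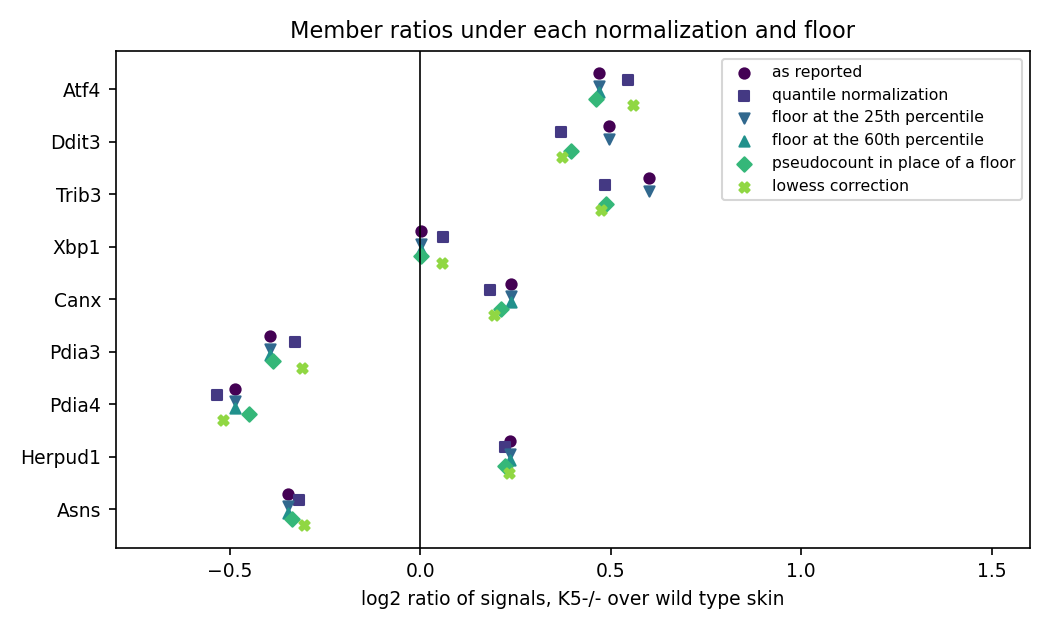
Log2 ratio of signals, K5-/- over wild type skin (horizontal axis), of the 9 measured genes, each by its brightest probe set, as reported and with 5 other ways of normalizing the arrays or treating low signals. Every gene keeps its side of 0, with Xbp1 close to it, and Ddit3 and Trib3 have no value with the floor at the 60th percentile.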

How the data were processed

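Gene expression was measured in 2 pools of total RNA, 1 per genotype, each made from 6 animals. Per the labels' protocols, biotinylated cRNA was prepared from 2 µg of total RNA. The values the authors deposited are linear intensities with 1 value for each probe set. The submitters' processing notes name MAS5, which summarises a probe set's probes as 1 signal and scales arrays to a common level; its version, target and detection calls are not given in the sources used here. A difference in RNA content per cell is therefore not visible.

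Of 12488 probe sets, 66 are controls. The platform annotation gives 1 symbol for 10833 of the others. Signals printed are the deposited ones. For ratios, both arrays were brought to 1 trimmed mean (2% at each end, non-control probe sets, factors 1.0001 for K5-/- and 0.9999 for wild type), and lower values were set to the floor before the log2 step. A gene was represented by the probe set with the highest mean. A difference was counted from 2-fold, with 1.5-fold as an alternative. No test was run, since 1 array per group leaves no residual degree of freedom, and precision is limited by the number of arrays. The scripts were checked on simulated data with known differences. These were all past 2-fold and in genes well above the floor, so the check does not cover smaller differences or dim genes.

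The text names all 10 genes and Krt5. It also names, from each pathway list, the 3 highest and 3 lowest genes above the floor on both arrays and any gene past 2-fold. Genes of the ERSE comparison, further amino acid transporters, disulfide isomerases and related proteins, and single cell type markers were named after values were seen. Members and lists were chosen with earlier results of these data known. The alternatives were quantile normalization, a lowess correction, floors at the 25th and 60th percentiles, a pseudocount of 100.0 in place of a floor, plain probe sets only, the mean over probe sets, and genes above the floor on both arrays only. Work was done in Python 3.11.15 with pandas 2.3.3, numpy 2.4.6 and statsmodels 0.14.6.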

Additional observations from a re-analysis of the deposited data

How the results depend on the processing

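Only 1 pool and 1 array per genotype exist, so no replicate could be left out. No paired analysis was possible because each group has 1 array and no result comes from a test. The median log2 ratio of the ER stress genes, 0.23, was 0.0023 with the higher floor (60th percentile, 7 genes measured) and -0.17 without the 3 genes whose signals are under 1000 in both pools, an alternative chosen after seeing the data; fewer genes enter both. Of the members, 0 were at least 2-fold higher and 0 lower under every normalization, floor and probe set choice, and in 1.5-fold counts 1 (Trib3) was higher as reported and 0 with quantile normalization, the lowess correction, the pseudocount or the higher floor. Over all measured genes, 92 were at least 2-fold higher and 42 lower. These counts were 205 and 94 with the lower floor (25th percentile), 44 and 19 with the higher floor, and 456 and 315 at 1.5-fold. The split was 79 higher and 59 lower with quantile normalization. The medians of the 9 pathway lists moved by less than 0.1 under every alternative in which they were computed. With plain probe sets only, 0 ATF4 and CHOP partners and targets were past 2-fold, since Atf3 has no plain probe set. In the other direction, 1 enzyme of amino acid synthesis was past 2-fold (lower) with quantile normalization or the lowess correction, 1 aminoacyl-tRNA synthetase (higher) with the lower floor and 1 gene of ER calcium and cell death (higher) with the mean over probe sets, against 0 each as reported. Ddit3 and Trib3 had wild type signals of 1.35 and 1.42 times the floor.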
